A study of Mus musculus with 6 samples.

Results

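The 9 genes described here encode structural proteins of central myelin: Mbp, Mobp, Mog, Mag, Cnp, Mal, Cldn11, Opalin and Ermn. They were taken by symbol from the gene count table, where all 9 have 1 row each among 53715 genes, and all 9 had enough counts to test. The libraries are messenger RNA of the hippocampus of 6 male C57BL/6J mice, 2 to 3 months old and without a transgene in the labels, of which 3 were fed a control diet and 3 a ketogenic one, high in fat and low in carbohydrate, for 3 weeks. They are called control 1, 2 and 3 and ketogenic 1, 2 and 3. The question was whether the members were lower with the ketogenic diet, and whether by 1 common factor.

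In the brain, myelin is made by oligodendrocytes, which wrap layers of membrane around axons. Mbp and Mobp encode basic proteins that hold the cytoplasmic faces of compact myelin together, and Cldn11 encodes the claudin of its tight junctions. Mal encodes a lipid raft protein that sorts myelin cargo. Cnp encodes an enzyme of the cytoplasmic channels that stay open in the sheath. Mag and Mog encode immunoglobulin-type membrane proteins, Mag on the inner layer that faces the axon and Mog on the outer surface. Opalin encodes a transmembrane protein of oligodendrocytes, and Ermn a cytoskeletal protein of the late stage of myelin formation. Several of these genes are direct targets of the transcription factors SOX10 and MYRF.

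All 9 members stood lower with the ketogenic diet, at between 46.6% and 70.1% of the control level, and 7 of the 9 fell at the threshold of an adjusted p under 0.05. Among all 16478 genes tested, 4.62% fell by the same test and 9.67% passed in either direction. Mbp, Mobp, Mal, Cldn11, Ermn, Mag and Cnp fell, while Mog and Opalin did not pass. The median log2 fold change of the members was -0.80, against -0.01 over all genes tested. The diets did not overlap in these 7 members, a separation that 27.6% of all tested genes showed and 13.6% showed in the downward direction. The test was edgeR's quasi-likelihood F-test, and its p-values were adjusted over all tested genes by the Benjamini-Hochberg method. A log2 fold change sets the ketogenic against the control diet and carries its standard error after ±. Levels are CPM, counts scaled to the library's size, as mean ± SD with n = 3 per diet. In bulk tissue, fewer oligodendrocytes and less of a transcript per cell cannot be told apart. No label says that the 3 mice of a diet came from separate cages or litters, so the p-values measure the spread between these libraries.

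Each library held between 16832240 and 18357792 counts in genes. The extraction protocol names retina and the tissue label hippocampus. Of 14 retina markers 3 had enough counts to test, with a summed level of 19.7 to 27.2 CPM and Rlbp1 at -0.30 and Sag at 0.32 on the log2 scale (adjusted p = 0.304 and 0.680), while all 12 pyramidal cell markers were tested, with 5116 to 7206 CPM. The libraries were not alike in other tissue content. The summed level of 14 choroid plexus markers was 7430, 3858 and 823 CPM in control 1, 2 and 3, and 101, 61.6 and 113 CPM in ketogenic 1, 2 and 3, with no marker at 0 throughout, and all 14 fell, Ttr and Kl (the most abundant) by 6.09 and 2.84 on the log2 scale. Of 14 dentate granule cell markers 6 fell, and the list summed to 1238 to 1427 CPM in the control and 733 to 1049 CPM in the ketogenic libraries. Its most abundant genes were Fam163b at -0.99 (adjusted p = 0.00639) and Calb1 at 0.19 (adjusted p = 0.445). Of 14 interneuron markers 11 rose (729 to 751 against 1047 to 1382 CPM), Gad1 and Sst by 0.49 and 0.98. Of 11 tested fibroblast and mural markers 7 rose (221 to 311 against 477 to 537 CPM), Vtn by 0.77, with Rgs5 at 0.29 (adjusted p = 0.0840). Of the pyramidal cell markers 6 fell, Camk2a and Nptx1 by 0.44 and 0.42, and 3 rose. Of 12 tested markers of thalamus and habenula 6 rose, Cacna1g and Rora by 0.78 and 0.30, and 2 fell. Of 12 pan-neuronal markers 1 rose and 1 fell, with Snap25 at 0.03 and Syt1 at 0.16 (adjusted p = 0.856 and 0.160). Leaving out 1 library, between 0 and 4 pan-neuronal markers rose and 0 or 1 fell. Without ketogenic 2, 1 pyramidal and 3 dentate cell markers fell, 7 interneuron markers rose, and 2 thalamus and habenula markers rose and 1 fell. Without control 2, 4 dentate cell markers fell, 4 fibroblast and mural markers rose, and 3 thalamus and habenula markers rose and 1 fell. Without ketogenic 3, 4 fibroblast and mural markers and 3 thalamus and habenula markers rose. The part of these differences in the results on myelin genes was not tested. With the choroid plexus list removed before scaling, 7 of the 9 members again fell.

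Mbp, the most abundant member, had 2698, 3211 and 2927 CPM in control 1, 2 and 3 and 1732, 1303 and 1459 CPM in ketogenic 1, 2 and 3. The 2 sets stood apart, with the highest ketogenic library, ketogenic 1, below every control library. The mean fell from 2945 ± 257 to 1498 ± 217 CPM (log2 fold change -0.98 ± 0.10, adjusted p = 0.00110). The gene, ENSMUSG00000041607, lies on chromosome 18 from 82475146 to 82585637 on the plus strand (coordinates as deposited, which match GRCm38). Its row also collects reads of the golli transcripts, which start upstream in the same gene and are made in neurons and immune cells as well, so myelin and golli forms are not separated here.

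Mobp had the largest fall of the 9. It reached 820, 970 and 1066 CPM on the control diet, against 512, 357 and 462 CPM on the ketogenic diet. No ketogenic library came near the lowest control library, control 1. The mean fell from 952 ± 124 to 444 ± 78.7 CPM (log2 fold change -1.10 ± 0.13, adjusted p = 0.00147). The gene lies on chromosome 9 from 120149707 to 120181484 on the plus strand.

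Cldn11 had narrow spread among the controls, with 138, 149 and 142 CPM, against 89.5, 63.6 and 82.8 CPM in ketogenic 1, 2 and 3. The libraries of the diets were well apart. Its mean fell from 143 ± 5.16 to 78.6 ± 13.5 CPM (log2 fold change -0.86 ± 0.11, adjusted p = 0.00186). Mal, the raft protein gene, reached 220, 266 and 298 CPM on the control diet, against 153, 116 and 144 CPM on the ketogenic diet. Every control library was higher than every ketogenic library here too. The log2 fold change of Mal was -0.92 ± 0.12 (adjusted p = 0.00207).

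Ermn, the cytoskeletal member, reached 55.3, 61.0 and 56.3 CPM on the control diet, against 34.9, 28.1 and 37.1 CPM on the ketogenic diet. The control libraries lay close together, and all were above the ketogenic ones. The log2 fold change was -0.79 ± 0.11 (adjusted p = 0.00207).

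**Figure D1:**
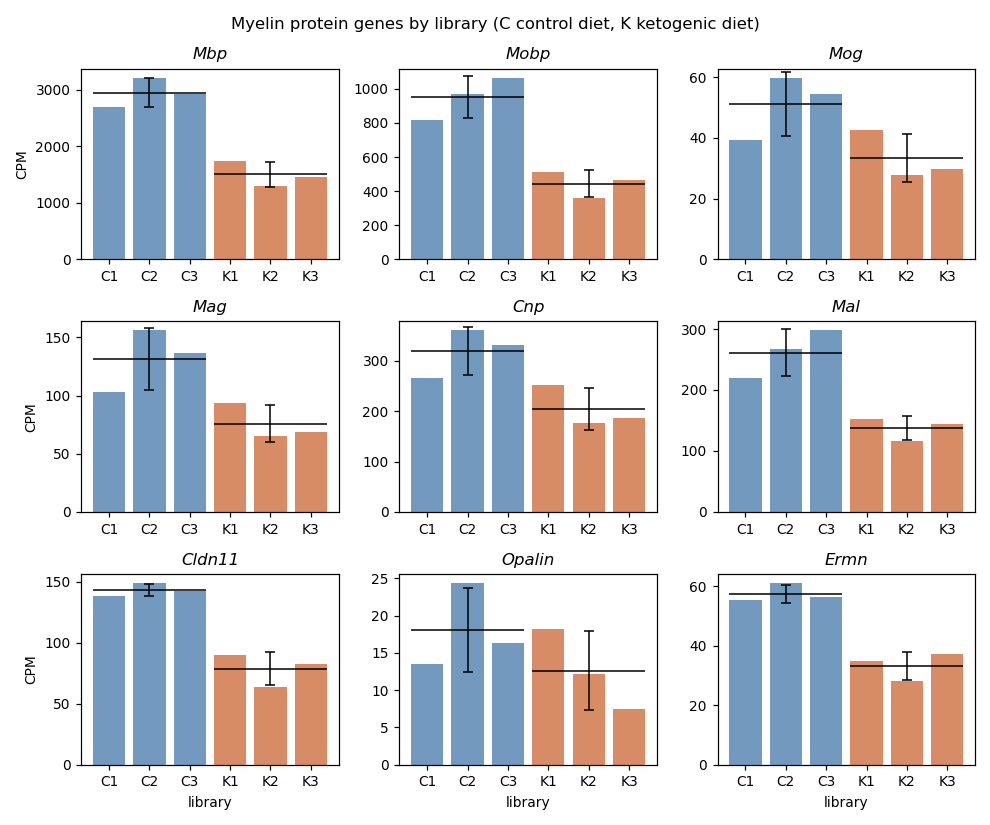
Level of each of the 9 genes in each library, in CPM on axes that start at 0, with blue bars for control (C1 to C3) and orange bars for ketogenic libraries (K1 to K3). Black lines are the mean of each diet and error bars its SD (n = 3); Mog and Opalin are the panels in which the bars of the diets overlap in height.

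Cnp reached 267, 360 and 332 CPM on the control diet, against 252, 176 and 187 CPM on the ketogenic diet. The lowest control library, control 1, and the highest ketogenic library, ketogenic 1, were nearly level, and the diets did not overlap. The log2 fold change of Cnp was -0.64 ± 0.14 (adjusted p = 0.0183). The 3' end of Cnp overlaps Dnajc7 on the other strand, which had 11449 counts in all against 27019 for Cnp. As the counting's strand setting is not given in the sources used here, reads from the overlap cannot be told apart. For the other members the overlapping genes had at most 103 counts in all.

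Mag reached 103, 156 and 136 CPM on the control diet, against 94.0, 65.2 and 68.6 CPM on the ketogenic diet. Ketogenic 1 was again just under control 1. The log2 fold change was -0.80 ± 0.16 (adjusted p = 0.0135). Mog reached 39.5, 59.9 and 54.5 CPM on the control diet, against 42.6, 27.9 and 29.6 CPM on the ketogenic diet. Here the diets overlapped, since ketogenic 1 was above control 1. The log2 fold change of Mog was -0.62 ± 0.18 and missed the threshold (adjusted p = 0.0581).

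Opalin had the fewest counts of the 9, between 127 and 412 per library. It reached 13.5, 24.3 and 16.3 CPM on the control diet, against 18.2, 12.2 and 7.49 CPM on the ketogenic diet. Ketogenic 1 was higher than 2 of the 3 control libraries. Its log2 fold change was -0.51 ± 0.29 (adjusted p = 0.344), with a 95% interval from -1.16 to 0.14 that holds both no change and a fall as large as that of Mobp.

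The upstream sequence of 4 members is shown because their falls span the range observed, with Mobp and Mal among the larger falls and Mog and Opalin the members that did not pass. The 250 bases before the RefSeq transcription start (GRCm38.p6), cut for Mobp to the 215 that lie outside the deposited gene, are chr9:120149492-120149706 on the plus strand for Mobp, chr2:127656696-127656945 on the minus strand for Mal, chr17:37023399-37023648 on the minus strand for Mog and chr19:41077114-41077363 on the minus strand for Opalin. Capitals mark matches on either strand to ACAAAG or ACAATG, forms of the core that SOX proteins bind, and to CTGGCAC or CTGGTAC, forms of the motif of MYRF.
Mobp: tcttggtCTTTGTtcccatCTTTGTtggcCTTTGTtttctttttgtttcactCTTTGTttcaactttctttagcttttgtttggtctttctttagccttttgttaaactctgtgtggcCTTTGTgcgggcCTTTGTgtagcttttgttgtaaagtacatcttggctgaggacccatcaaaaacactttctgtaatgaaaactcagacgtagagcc
Mal: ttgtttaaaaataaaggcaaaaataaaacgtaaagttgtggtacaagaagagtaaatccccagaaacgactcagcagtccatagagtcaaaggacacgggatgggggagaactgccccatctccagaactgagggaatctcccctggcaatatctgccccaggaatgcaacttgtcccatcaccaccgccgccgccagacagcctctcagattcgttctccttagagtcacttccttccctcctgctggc
Mog: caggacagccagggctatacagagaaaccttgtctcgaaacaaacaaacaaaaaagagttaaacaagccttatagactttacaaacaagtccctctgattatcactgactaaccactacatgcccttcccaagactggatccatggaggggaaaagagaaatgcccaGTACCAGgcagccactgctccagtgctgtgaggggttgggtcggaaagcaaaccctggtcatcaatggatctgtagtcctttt
Opalin: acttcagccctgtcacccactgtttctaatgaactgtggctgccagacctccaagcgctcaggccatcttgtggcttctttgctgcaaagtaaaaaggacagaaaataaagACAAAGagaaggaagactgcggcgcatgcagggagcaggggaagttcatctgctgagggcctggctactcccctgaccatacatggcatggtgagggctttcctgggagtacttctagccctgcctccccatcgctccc
Mobp has 6 copies of ACAAAG, all on the opposite strand and therefore printed as CTTTGT, between 243 and 115 bases before the start. Opalin has 1 copy of ACAAAG, Mog has 1 CTGGTAC on the opposite strand, and the window of Mal has neither kind. Upstream windows of 8 members were searched, with 3 windows for the alternative starts of Mag, and Mbp was not searched. The Mag windows with matches overlap and share them, and the window at chr7:30914322-30914571 lies inside the deposited gene. A SOX core was found in 5 of the 8 members, or 6 of their 10 windows, and in 25.2% of all 32851 promoter windows of the same length. A MYRF form was found in 3 of the 8, Mag, Cnp and Mog, or 4 of the 10 windows, and in 5.93% of all windows. TATAAA, the third motif searched, was in 0 of the 8 and in 12.4% of all windows. None of the matches in the members overlap, and a match of letters is a description and not a binding site.

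Levels can be compared roughly between genes with the deposited FPKM, which are scaled by 1 length per gene. That length was 8403 bases for Mbp, 4072 for Mag and 1704 for Mog, and the order of the genes depends on it. Whether it matches the transcripts made here was not tested. In the control libraries Mbp had 348 ± 29.9 FPKM and Mobp between 119 and 155 FPKM. Mal (93.4 ± 14.0), Cnp (87.2 ± 13.0) and Cldn11 (76.0 ± 2.64) followed, with neighbours that lay within each other's spread. Mag (32.1 ± 6.46) and Mog (29.9 ± 6.15) formed the next pair, which also did not differ beyond its spread, above Ermn (15.7 ± 0.821) and Opalin (9.76 ± 3.01). In the ketogenic libraries the means ran from 177 ± 25.6 FPKM for Mbp and 64.3 ± 11.4 FPKM for Mobp down to 6.82 ± 2.88 FPKM for Opalin. Only neighbours within their spread changed places, Cnp with 55.9 ± 11.2 standing above Mal with 49.3 ± 6.85 FPKM and Mog with 19.4 ± 4.68 above Mag with 18.5 ± 3.82 FPKM. Mbp made up between 58.2% and 62.0% of the members' summed CPM in every library, so this share hardly moved while the sum went from 4355, 5258 and 5029 CPM in the control libraries to 2927, 2149 and 2478 CPM in the ketogenic libraries.

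The members also moved together within a diet. Control 1 was the lowest control library for all 9 members, and control 2 was the highest for 7. Ketogenic 1 was the highest ketogenic library for 8 of the 9 and ketogenic 2 the lowest for 8, with Ermn highest and Opalin lowest in ketogenic 3. On the log2 scale and relative to each gene's control mean, the mean of the 9 stood at -0.22, 0.17 and 0.05 in the control libraries and at -0.53, -1.02 and -0.89 in the ketogenic libraries. Control 1, the control library lowest in myelin genes, was also the one with the most choroid plexus transcripts. Ketogenic 2 was the lowest of all 6 libraries in both lists.

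**Figure D2:**
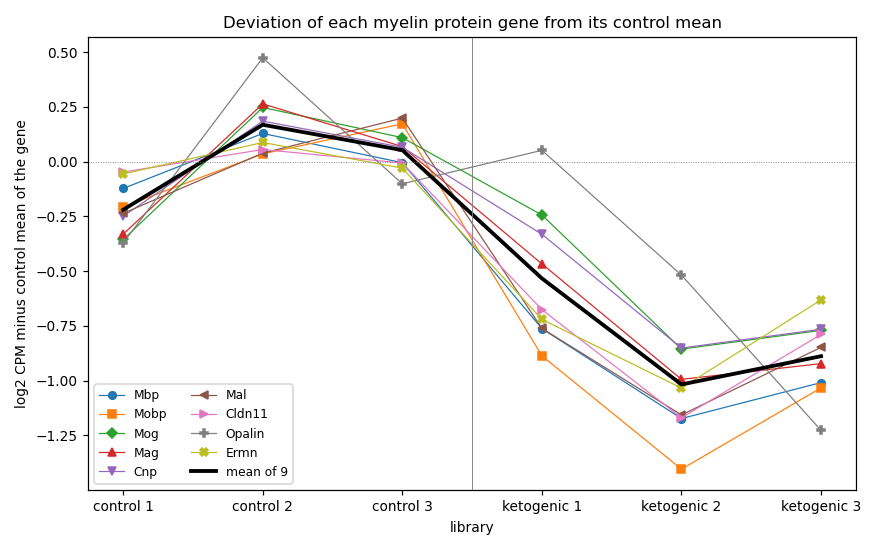
Log2 CPM of each gene less its control mean, by library; each thin line joins the values of 1 gene and the thick black line is the mean of the 9. All lines are lower in ketogenic 2 and 3 than in every control library, and in ketogenic 1 the genes spread from -0.89 for Mobp to 0.05 for Opalin.

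A single factor per library, the same for every member, held 87.7% of the sum of squares of the members' log2 levels around their own means. Differences between members in their response to diet held 3.13% on 8 degrees of freedom, and differences between members from library to library within a diet held 9.16% on 32. Per degree of freedom the first was 0.0481 and the second 0.0352. The degrees of freedom count the members as independent of each other, although all members come from the same n = 3 libraries per diet. The values are therefore a description, and they cannot decide whether the members' responses differed. The closeness of 0.0481 and 0.0352 rested on Opalin. With Opalin left out, chosen after seeing the data, the shared factor held 93.8%, and the values per degree of freedom were 0.0401 for diet and 0.0137 for libraries within a diet. The SD left after the shared factor was 0.19 on the log2 scale, above the counting error, whose median was 0.030 and whose highest value was 0.13.

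**Figure D3:**
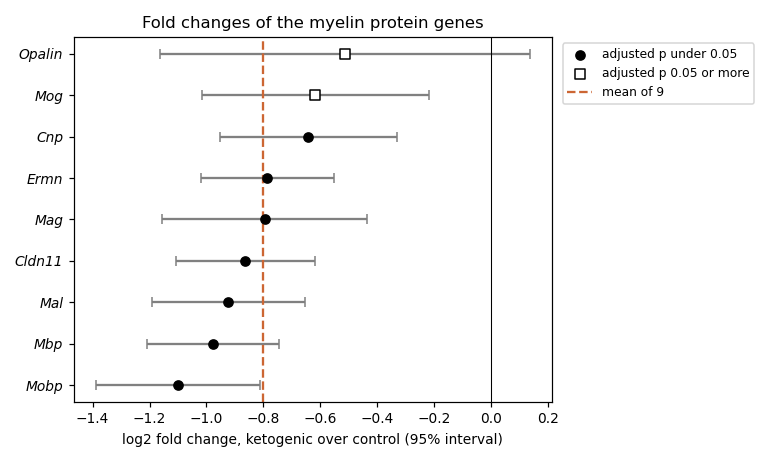
Log2 fold change of each gene, ketogenic over control, with its 95% interval from edgeR's quasi-likelihood fit; filled points passed an adjusted p of 0.05, and the dashed line is the mean of the 9. Estimates run from -1.10 for Mobp to -0.51 for Opalin, and the dashed line at -0.80 lies just outside the interval of Mobp and inside those of the other 8.

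Whether any member departs from the others was tested by scaling each library to the mean log2 level of the other 8. On that scale a member with the common fall has a log2 fold change of 0. No member passed with edgeR's quasi-likelihood test, with 0 of 9 at an unadjusted p under 0.05 and 0 of 9 with limma-voom. In the fits for Mobp, Mbp, Cldn11, Mal and Ermn 77.6%, 78.2%, 78.8%, 78.9% and 79.1% of all tested genes passed, and in those for Mag, Cnp, Mog and Opalin 81.1%, 81.6%, 82.2% and 82.8%, since a gene without the fall of the members stands higher on this scale. The estimates went from -0.33 ± 0.22 for Mobp (95% interval -0.77 to 0.11, adjusted p = 0.159) to 0.33 ± 0.24 for Opalin (95% interval -0.14 to 0.79, adjusted p = 0.181), and the estimate of Opalin was 0.14 without ketogenic 1 and 0.59 without ketogenic 3. Mbp stood at -0.19 (95% interval -0.61 to 0.23), Cnp at 0.18 (-0.25 to 0.62) and Mog at 0.21 (-0.23 to 0.65). The fit shares its spread with all other genes, which vary between libraries on this scale. The missed threshold does not show that the members fall alike.

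The libraries themselves separated 4 members on that relative scale. Of all genes, 78.1% are separated relative to the mean of all members, a slightly different scale on which a gene without their fall stands higher. Relative to the other 8 and to its control mean, Mobp stood at 0.01, -0.15 and 0.14 in the control libraries and at -0.40, -0.44 and -0.16 in the ketogenic libraries. Cnp stood at -0.03, 0.02 and 0.01 in the control libraries and at 0.23, 0.19 and 0.14 in the ketogenic libraries. Mobp was thus below its control values and Cnp above them in every ketogenic library. Mbp was separated downward like Mobp, and Mog upward like Cnp. For these 4 the exact two-sided permutation test over libraries gave p = 0.10, the smallest that 3 against 3 allows, and for the other 5 it gave between 0.40 and 1.

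**Figure D4:**
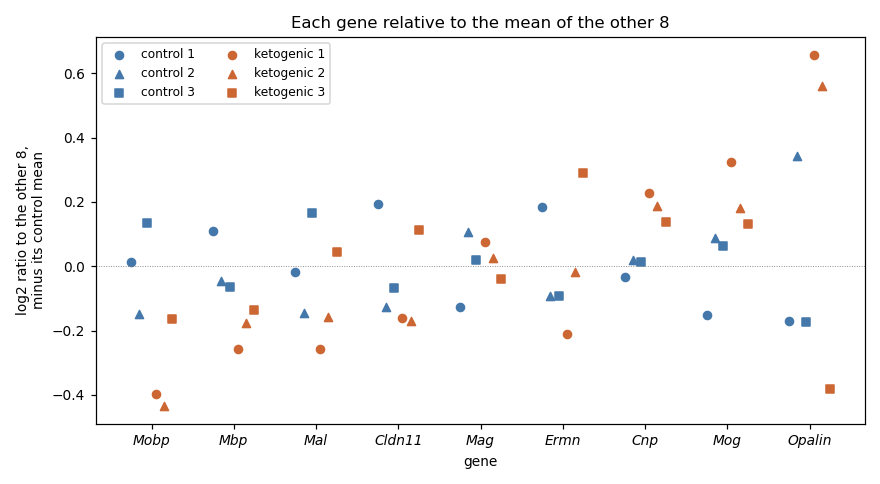
Log2 ratio of each gene to the mean of the other 8 in the same library, less its control mean, with blue points for control and orange points for ketogenic libraries (n = 3 each). Orange lies below blue for Mobp and Mbp and above blue for Cnp and Mog, while the points mix for Mal, Cldn11, Mag, Ermn and Opalin.

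Ketogenic 1 and control 1, the highest and the lowest library of their diets, were compared after seeing the values. The members are listed in the order of this ratio, which rests on 1 library per diet. No grouping of them was set beforehand. The ratio of ketogenic 1 to control 1 was 0.624 for Mobp, 0.631 for Ermn, 0.642 for Mbp, 0.647 for Cldn11 and 0.695 for Mal. It was 0.910 for Mag, 0.944 for Cnp, 1.08 for Mog and 1.34 for Opalin.

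Of 26 tested genes of other myelin sheath proteins 13 fell and 13 did not pass, with a median log2 fold change of -0.46 and a range from -0.93 to 0.21. The 4 most abundant were Gpm6b, a proteolipid gene that neurons also express, at -0.15 ± 0.06 (adjusted p = 0.143), Tppp, a tubulin-binding protein gene, at -0.12 ± 0.06 (adjusted p = 0.320), Plekhb1 at -0.56 ± 0.10 (adjusted p = 0.00611) and Cadm4, an adhesion protein gene, at 0.10 ± 0.05 (adjusted p = 0.314). Plekhb1 fell from 340 ± 39.2 to 231 ± 24.2 CPM. The other 3 did not pass.

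Genes of mature oligodendrocytes outside the sheath gave 11 that fell, 1 that rose and 11 that did not pass among 23 tested, with a median of -0.56. Their 4 most abundant members were Car2, a carbonic anhydrase gene, at -0.35 ± 0.10 (adjusted p = 0.0630), Apod at -0.04 ± 0.09 (adjusted p = 0.859), Efnb3, an ephrin gene that neurons also express, at 0.30 ± 0.08 (adjusted p = 0.0475), and Olig1, a lineage transcription factor gene, at -0.13 ± 0.09 (adjusted p = 0.441). Efnb3 was the gene that rose, and it did not pass with a filter at 1 CPM, with the replicate block, or without control 1, 2 or 3 or ketogenic 2 or 3. The genes of the factors whose motifs were searched, Sox10 and Myrf, fell by 0.66 and 0.74 on the log2 scale (adjusted p = 0.00333 and 0.00186), Sox10 from 51.4 ± 6.46 to 32.4 ± 1.31 CPM and Myrf from 71.4 ± 3.27 to 42.8 ± 5.12 CPM. With the sheath list added, 24 genes fell, a count that dropped to 6 when either control 2 or ketogenic 2 was left out and to 14 when ketogenic 3 was.

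Of 13 tested genes of newly formed oligodendrocytes 2 fell, with a median of -0.08. The count was 0 without control 2 or ketogenic 2, 1 without control 1 or ketogenic 3, and 1 with upper-quartile scaling. Nfasc and Bcan, genes that neurons or astrocytes also express, fell by 0.33 and 0.25 (adjusted p = 0.0159 and 0.0427), and the next in abundance, Fyn and Sema4d, stood at -0.08 and 0.02 (adjusted p = 0.528 and 0.932). Of 14 oligodendrocyte precursor markers 3 rose and 11 did not pass, with a median of 0.23. Cspg5 and Ptprz1, which astrocytes also express, rose by 0.32 ± 0.08 and 0.29 ± 0.07 (adjusted p = 0.0396 and 0.0325). Pcdh15, less abundant, was the other that rose, by 0.75 ± 0.16 (adjusted p = 0.0158). Tnr stood at -0.04 (adjusted p = 0.699), and Pdgfra, a receptor gene used as a precursor marker, at 0.28 (adjusted p = 0.0636). Without control 1, and without ketogenic 2, 1 precursor marker rose.

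Of 14 astrocyte markers 1, Agt, rose by 1.03 ± 0.16 (adjusted p = 0.00351), with 3 that rose without control 3. The median of the list was 0.10, and the most abundant, Slc1a2 and Aldoc, stood at -0.07 and 0.10 (adjusted p = 0.579 and 0.324). Of 12 microglia markers 0 passed with edgeR's quasi-likelihood test and 0 with DESeq2, with 2 at an unadjusted p under 0.05, a median of -0.05, and Csf1r at -0.07. Of 12 endothelial markers 0 passed with either tool, with 3 at an unadjusted p under 0.05, a median of 0.03, Slc2a1 at 0.05 and Flt1 at -0.07. Without control 1, 1 endothelial marker rose. Of 6 genes of peripheral myelin 3 had enough counts to test, and 0 passed with either tool, with 1 at an unadjusted p under 0.05, Drp2 at -0.17 and Prx at 0.34. No difference between any of the gene lists, members included, was tested.

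**Figure D5:**
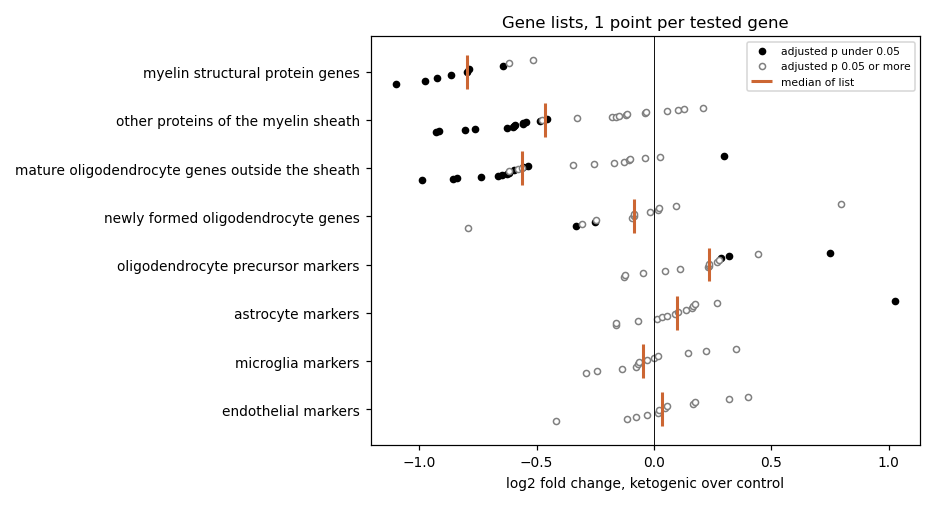
Log2 fold change of each tested gene, ketogenic over control, by gene list; filled points passed an adjusted p of 0.05 and the orange bar is the median of the list. The medians are -0.80 for the myelin structural protein genes, -0.46 for other sheath proteins, -0.56 for mature oligodendrocyte genes, and between -0.08 and 0.23 for the other 5 lists.

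The genes whose 6 values were nearest to the members' mean profile were sought among 11394 other genes with a mean of at least 5 CPM, by the root mean square difference of the log2 levels from the control mean. Among the 10 nearest, Dhx33, a helicase gene, had a difference of 0.073 and Inf2, a formin gene, one of 0.089. For Chrm3, a muscarinic receptor gene, it was 0.095, and for Il16 it was 0.10. Prr18, Aldh1a1, Srl, Adamts4 and Dpf3 were also among the 10, at up to 0.12. Among the members themselves the difference ran from 0.068 for Mag to 0.38 for Opalin, with each member part of the mean. Dhx33 fell from 109 to 62.8 CPM, with -0.79 ± 0.12 as its log2 fold change. As these genes were picked for likeness to a profile that falls, their falls follow from the choice and are not a separate result.

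The size of the falls was steadier than the calls. Over 17 other settings of scaling, filter, tool, replicate block or libraries, every member stayed below 0, and the members' median lay between -0.97 and -0.70. Mbp, Mobp, Mal and Cldn11 passed in all 17. Mag and Cnp did not pass without control 2, without ketogenic 2 or without ketogenic 3, with adjusted p of 0.0527 to 0.0969, nor on log2 FPKM values. With every library kept, Mog passed with DESeq2 (adjusted p = 0.00296) and with edgeR without a filter (adjusted p = 3.7e-06). Leaving out control 1 or ketogenic 1 also brought Mog past the threshold (adjusted p of 0.0184 and 0.0129). The log2 fold change of Opalin went from -0.24 without control 2 to -0.87 without ketogenic 1. With control 1 and 2 both left out, the members were again below 0, and the lone control library is then assumed to vary like the others.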

How the data were processed

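For all 6 libraries the authors deposited raw counts by Ensembl gene, and FPKM, which they scaled by length and depth. The input was 1 µg of RNA for a TruSeq kit, per the labels' protocols. The submitters' processing notes name mm9 as the build, and as tools DESeq2 1.10.1, featureCounts 1.5.0-p3 and CASAVA. No aligner or strand setting is given in the sources used here. Of 53620 gene identifiers shared with GENCODE M21 (GRCm38), 97.1% share both ends with it, and coordinates were therefore read as GRCm38. The deposited FPKM equalled count over length over 1 size per library, within 1% for every gene with a mean count over 50.

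The test on counts used edgeR 4.0.16 in R 4.3.3 (filterByExpr, TMM, quasi-likelihood F-test, no covariates), for ketogenic over control over 16478 of 53715 genes. Standard errors are the log2 fold change over the square root of F. The relative test multiplied each library's size by the mean of the other 8 members. Alternatives used limma 3.58.1 and DESeq2 1.42.0, and the steps were tested on simulated data. Libraries of 1 diet differed by more than counting noise (chi-square per degree of freedom 6.26 to 18.9). Promoters are from RefSeq (GRCm38.p6). Members, lists and tests were chosen with earlier results of these data known. Named are all members, the 4 most abundant genes of each oligodendrocyte list, the 2 most abundant of every other list, and the 10 genes nearest in profile. Sox10 and Myrf were added for their motifs, after their values were seen. Agt and Pcdh15 were added as markers that rose, also after their values were seen. Of the genes this rule names, 2 are not reported here.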

Additional observations from a re-analysis of the deposited data

How the results depend on the processing

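Of the 9 members, 7 fell. The count was 9 without a filter, 8 with DESeq2, and 7 with RLE or upper-quartile scaling, limma-voom or a filter at 1 CPM. It was 5 on FPKM values logged with a pseudocount of 1 or 0.1, and 5 to 8 leaving out 1 library. Without a filter the standard errors were smaller, as for Mag with 0.09 against 0.16. Same-numbered libraries did not deviate together (correlations of -0.024, 0.066 and 0.019, and control 1 correlated best with ketogenic 3), and a fit with the replicate number as a block gave 7 members, 1504 of all genes instead of 1593, and 23 instead of 24 sheath and mature oligodendrocyte genes. The count over all genes was 2462 without a filter, 571 and 695 on logged FPKM with pseudocounts of 1 and 0.1, 289 without control 1 and 2, and 538 to 1877 leaving out 1 library, where the 24 genes became 6 to 25. Of 9 members 0 departed from the other 8, leaving out any library, with limma-voom, the block, the filter at 1 CPM or the median of the others. With the summed CPM of the others as the scale, in which Mbp dominates, 1 did (Opalin, adjusted p = 0.0499), and the estimates of Mal and Cldn11 turned to 0.038 and 0.085. With mature oligodendrocyte genes outside the sheath as the scale, 4 did, all lower (Mbp -0.54, Mobp -0.68, Mal -0.50, Cldn11 -0.43), and Mog, Mag, Cnp, Opalin and Ermn turned to -0.19, -0.36, -0.21, -0.070 and -0.35. That scale is the mean of all 23 tested genes of the list, of which 11 fell, 1 rose and 11 did not pass. In the main relative fits 77.6% to 82.8% of all tested genes passed. For these other scales that share is not given here, so the counts of 1 and 4 members are a description. Leaving out 1 library, the estimate of Mag ran from -0.042 (without control 1) to 0.073 (-0.0091 without ketogenic 1), that of Cldn11 from -0.17 to 0.029 (without control 1) and that of Ermn from -0.12 (without ketogenic 3) to 0.14 (-0.018 and -0.019 without control 2 and 3). That of Opalin ran from 0.14 to 0.59 and that of Mal from -0.21 to -0.036. The block gave 3 instead of 6 higher thalamus and habenula markers. The cause of these changes was not tested. Opalin had the fewest counts, at 127 to 412 per library. The highest counting error of any member's value was 0.13 on the log2 scale, against a standard error of 0.29 for the fold change of Opalin.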
